A study of Mus musculus with 6 samples.

Results

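The 10 genes described here encode transcriptional regulators of photoreceptors: Otx2, Crx, Rorb, Nrl, Esrrb, Neurod1, Samd7, Samd11, Thrb and Rxrg. They were taken as the probe sets annotated with exactly 1 of these symbols, which gave 10 of 41345 probe sets, 1 for each gene, and all 10 were among the 15619 genes tested. Expression was measured on Affymetrix mouse gene arrays at postnatal day 17 in the retinas of male mice, pooling both eyes of a mouse. The knockout group was 3 mice of genotype Chx10Cre+/-;Atrx flox/y, and the group labelled wildtype was 3 littermates of genotype Chx10Cre-/-;Atrx flox/y. The controls therefore carry the same floxed Atrx allele and lack only the Cre transgene, so loss of Atrx, a chromatin remodeller, and presence of the transgene cannot be told apart. The Cre transgene is known to act in retinal progenitor cells, from which photoreceptors and the other retinal neurons arise, and the labels do not say how complete the deletion was. By the design text this age is when loss of amacrine and horizontal cells peaks in these mice; for the photoreceptor regulators, the question is how the genotypes compare at this age.

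Photoreceptor identity is set by a cascade of DNA-binding factors. Otx2 commits progenitors to the photoreceptor fate and switches on Crx, a related homeodomain protein that activates most photoreceptor genes. Rorb, an orphan nuclear receptor, acts upstream of Nrl, the leucine zipper factor that turns a photoreceptor precursor into a rod. Esrrb and Neurod1 sustain mature photoreceptors, Samd7 and Samd11 bring polycomb repression to rods and keep non-rod genes silent there, and Thrb and Rxrg pattern the cone opsins.

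The deleted gene checks the labels first. Atrx read 8.42, 8.72 and 8.33 on the log2 scale on knockout arrays 1 to 3 and 9.04, 8.86 and 9.17 on wildtype arrays 1 to 3, so all knockout values lay below all wildtype values, although the log2 change of -0.53 (SE 0.12) missed the threshold (limma adjusted p = 0.115). The tissue label was borne out by Gnat1, the rod transducin, between 13.65 and 13.72 on all 6 arrays. Lens genes were high on knockout 2 and wildtype 1: the mean of 13 lens genes was 10.33 and 11.49 there, against 5.64 to 6.12 on the other 4 arrays. The 15 pigment epithelium markers tested had array means from 8.37 to 9.31 in knockout and from 8.82 to 9.48 in wildtype. Of the 15, 12 were lower in knockout, and 0 had groups that did not overlap. Over all genes, every knockout array lay above every wildtype array in 10.7% and below in 9.58%. For Rorb and Nrl, the regulators whose change moved by more than 1.5 times without the 2 lens-rich arrays, both values are given.

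No regulator passed the threshold over all genes. With limma's moderated test and Benjamini-Hochberg adjustment over 15619 genes at 0.05, 0 of the 10 were called, where 0.826% of all genes were. At an unadjusted p under 0.05 there were 4 of 10, against 13.5% of all genes. For 6 of the 10 every knockout array lay above every wildtype array, which held for 10.7% of all genes, and for 1, Rxrg, every knockout array lay below, which held for 9.58%. The median log2 change, knockout minus wildtype, was 0.13 over the 10 and 0.00268 over all genes. These 10 genes share the same 6 arrays and are not independent of each other, so the counts describe these arrays. In RNA of a whole retina, more cells of a type and more RNA per cell cannot be told apart.

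**Figure D1:**
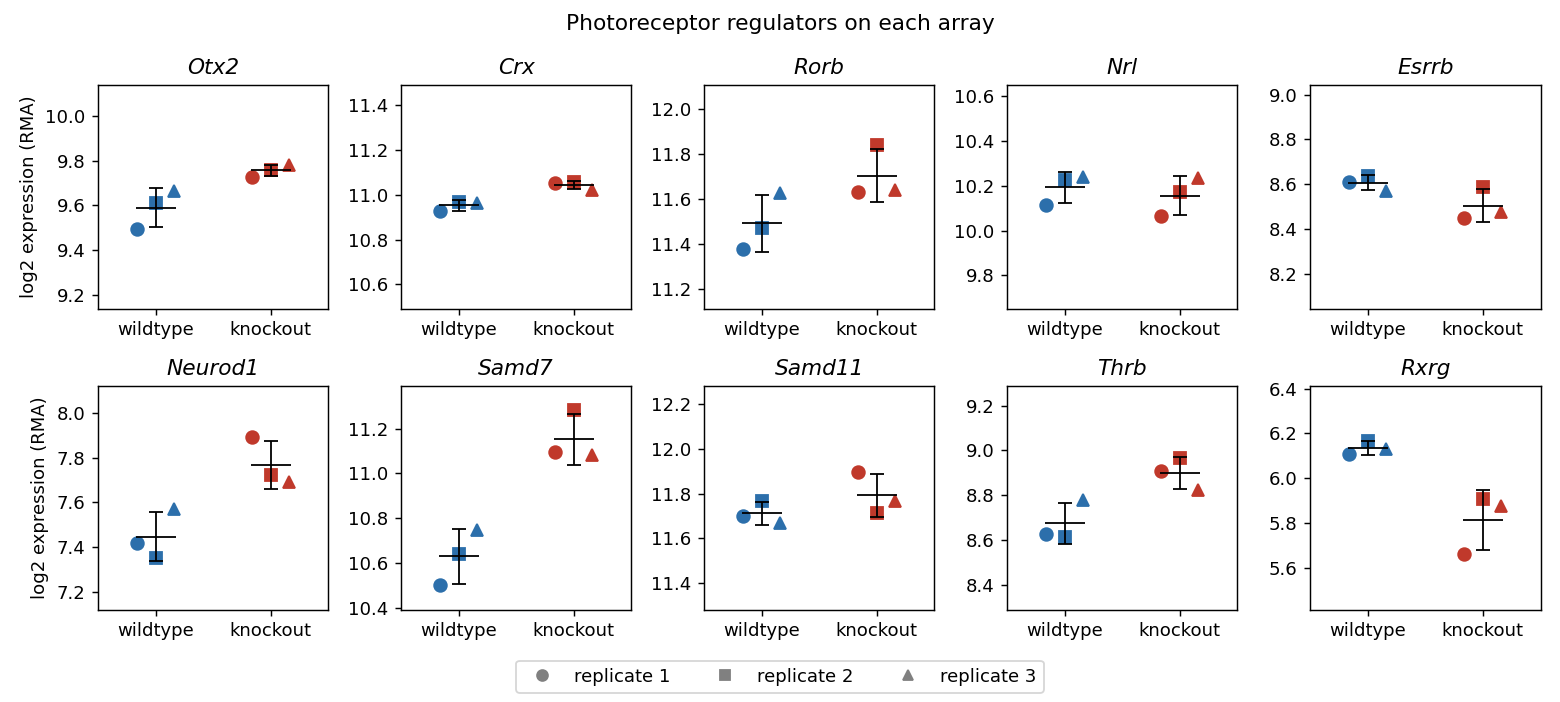
Log2 expression of each of the 10 regulators on each array (points), with the group mean and SD (n = 3). Shape gives the replicate number, which was not used to pair the groups. Every panel spans 1 log2 unit at its own level. In Samd7, Neurod1, Thrb, Otx2, Rorb and Crx all knockout points lie above all wildtype points, in Rxrg all lie below, and in Nrl, Esrrb and Samd11 the groups overlap.

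The promoters of the 3 members with the smallest p-values are shown first, because they differ in direction and in the letters they hold. Each is the 250 bases upstream of a RefSeq transcription start in build GRCm38.p6, written along the gene's strand. Capitals mark TAATCC, the core bound by OTX and CRX homeodomains, TGCTGA, one arm of the element bound by MAF-type factors such as Nrl, and AGGTCA, a single nuclear receptor site, each on either strand, so that a match on the other strand appears as its reverse complement.
Samd7, chr3:30746043-30746292, plus strand: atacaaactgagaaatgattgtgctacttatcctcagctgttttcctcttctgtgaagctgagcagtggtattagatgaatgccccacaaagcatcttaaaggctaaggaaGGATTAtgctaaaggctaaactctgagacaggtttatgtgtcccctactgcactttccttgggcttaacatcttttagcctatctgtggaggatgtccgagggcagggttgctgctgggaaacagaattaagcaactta
Neurod1, chr2:79456637-79456886, minus strand: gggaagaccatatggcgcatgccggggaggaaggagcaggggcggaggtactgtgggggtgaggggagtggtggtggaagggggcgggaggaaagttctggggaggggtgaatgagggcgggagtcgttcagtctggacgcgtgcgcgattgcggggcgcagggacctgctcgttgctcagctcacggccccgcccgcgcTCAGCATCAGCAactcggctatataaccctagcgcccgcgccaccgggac
Rxrg, chr1:167598112-167598361, plus strand: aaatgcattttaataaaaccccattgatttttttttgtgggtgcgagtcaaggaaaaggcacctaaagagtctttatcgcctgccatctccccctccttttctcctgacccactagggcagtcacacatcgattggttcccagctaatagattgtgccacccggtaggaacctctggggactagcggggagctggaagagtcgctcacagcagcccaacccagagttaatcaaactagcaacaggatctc

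Each window ends at the base before the annotated gene: Samd7 spans chr3:30746293-30767174, Neurod1 chr2:79452637-79456636 and Rxrg chr1:167598362-167639623. The Samd7 window holds 1 reversed TAATCC, which reads GGATTA here, that begins 139 bases before the start and neither of the other motifs. The Neurod1 window, at 67.6% G and C, holds 2 adjoining reversed TGCTGA matches, each of which reads TCAGCA, that begin 50 and 44 bases before the start. The Rxrg window holds none of the 3; a second Rxrg start in the table has 1 AGGTCA, 88 bases upstream. All 10 genes were matched, with 17 windows between them because Otx2 has 4 starts and Esrrb, Rorb, Thrb and Rxrg have 2 each. TAATCC was in 5 of the 17 windows (29.4%), against 6.25% of 32851 windows in the table. Counted by gene, Crx, Otx2, Samd7, Samd11 and Thrb had it in at least 1 window, 5 of 10, against 7.21% of all genes. Crx and Samd11 had it 2 times each. Only 3 of the 10 had it in every window, since Otx2 had it in 1 of 4 and Thrb in 1 of 2. The regulators have 17 windows for 10 genes, against 32851 windows for 27025 genes, so a count of any window favours them. Otx2 windows 1 and 2 also overlap each other. TGCTGA was in 4 of 17 windows (all windows 16.1%) and AGGTCA in 2 of 17 (14%). The 5 genes with TAATCC had log2 changes of 0.52 (Samd7), 0.22 (Thrb), 0.17 (Otx2), 0.091 (Crx) and 0.080 (Samd11), and the members without it were Neurod1 (0.32), Rorb (0.21), Nrl (-0.036), Esrrb (-0.10) and Rxrg (-0.32). No relation between the match and the change was tested. A match is a run of letters and was not tested as a binding site.

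Among the early factors, Otx2, Crx and Rorb were all slightly higher in knockout retina. Otx2 read 9.73, 9.76 and 9.78 in knockout and 9.50, 9.61 and 9.67 in wildtype. The 3 knockout arrays were close together and lay above all wildtype arrays, with a gap of 0.063 between the groups. The log2 change was 0.17 (95% interval -0.011 to 0.34, limma adjusted p = 0.396). Otx2 is also made in the pigment epithelium, whose marker mean was lowest on knockout 1 and highest on wildtype 2; with that mean as a covariate the change was 0.19. Rpe65, the isomerase that defines that epithelium, differed by 0.090 (SE 0.34). Of the 15 pigment epithelium markers tested, 3 were higher in knockout and 12 lower, with a median of -0.19.

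Crx had the tightest replicates of the 10. It read 11.05, 11.06 and 11.02 in knockout and 10.93, 10.97 and 10.96 in wildtype, with SDs of 0.019 and 0.024. The groups did not overlap, yet the difference was only 0.091 (95% interval -0.067 to 0.25, limma adjusted p = 0.604), a 1.07-fold difference. The Crx interval was the narrowest of the 10. The moderated SE of limma, which draws on the spread of all genes tested, was 0.069. Plain least squares gave an SE of 0.017 (unadjusted p = 0.0063, adjusted p = 0.245).

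Rorb read 11.63, 11.84 and 11.64 in knockout and 11.38, 11.47 and 11.63 in wildtype. The groups were separated by only 0.0031, since wildtype 3 almost reached knockout 1. The log2 change was 0.21 (SE 0.097, limma adjusted p = 0.389). The highest and lowest values came from the lens-rich arrays, knockout 2 and wildtype 1, and without these 2 arrays the change was 0.088 (adjusted p = 0.758).

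The rod factor Nrl did not differ detectably. It read 10.06, 10.17 and 10.24 in knockout and 10.11, 10.23 and 10.24 in wildtype, and the groups overlapped across almost their whole ranges. The log2 change was -0.036 (95% interval -0.22 to 0.15, limma adjusted p = 0.884). It was 0.010 without knockout 1 and -0.083 without the 2 lens-rich arrays. Esrrb, an orphan receptor that supports rod energy metabolism and survival, read 8.45, 8.59 and 8.48 in knockout and 8.61, 8.64 and 8.57 in wildtype. Knockout 2 lay among the wildtype values, and the change was -0.10 (95% interval -0.27 to 0.070, adjusted p = 0.594).

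Neurod1, a basic helix-loop-helix factor that photoreceptors need to survive, had the second largest positive difference. It read 7.89, 7.72 and 7.69 in knockout and 7.42, 7.35 and 7.57 in wildtype. All knockout arrays lay above all wildtype arrays, with a gap of 0.12. The log2 change was 0.32 (95% interval 0.11 to 0.53), a 1.25-fold difference, with an unadjusted p of 0.0080 in limma that was not called over all genes (adjusted p = 0.188). A second, brighter probe set is annotated to both Neurod1 and Cerkl and was not counted as a member. It read 11.14, 10.99 and 10.99 in knockout and 10.69, 10.71 and 11.00 in wildtype, so wildtype 3 lay among the knockout values. Its change of 0.24 (SE 0.11, limma adjusted p = 0.495 over all probe sets) had the same sign, but which of the genes it reads cannot be told apart. Neurod1 is also expressed by some amacrine cells, and the amacrine markers were lower in knockout. The 16 amacrine markers tested had array means from 6.99 to 7.29 in knockout and from 7.62 to 7.71 in wildtype. Their part in the Neurod1 difference was not tested.

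Samd7 showed the largest difference of the 10. It read 11.09, 11.28 and 11.08 in knockout and 10.50, 10.64 and 10.75 in wildtype. The lowest knockout array was 0.33 above the highest wildtype array, a wider gap than the range of either group. The mean was 11.15 ± 0.11 in knockout and 10.63 ± 0.12 in wildtype (SD, n = 3), a log2 change of 0.52 (95% interval 0.30 to 0.74) or 1.44-fold. The unadjusted p was 0.00054 and the adjusted p 0.055 in limma, just outside the threshold, and an exact permutation test over arrays gave p = 0.1, which is as low as groups of 3 can reach. It passed the threshold when dim genes were filtered more strictly, at a log2 floor of 6 (adjusted p = 0.027), and with an intensity trend and robust spread (0.0089). With any 1 array left out the change stayed between 0.46 and 0.58, and without the 2 lens-rich arrays it was 0.39 (adjusted p = 0.205).

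Its relative Samd11 had a smaller difference. Samd11 read 11.90, 11.71 and 11.77 in knockout and 11.70, 11.77 and 11.67 in wildtype, and the groups overlapped (log2 change 0.080, 95% interval -0.11 to 0.27, limma adjusted p = 0.701; 0.027 without knockout 1). Within each array, Samd7 minus Samd11 was -0.80, -0.43 and -0.69 in knockout and -1.20, -1.13 and -0.92 in wildtype. The knockout differences were all above the wildtype ones, by 0.44 on average (exact permutation p = 0.1, the smallest the design allows; this pair was compared after its values were seen). Of 14 tested polycomb partners 0 were called (background 0.826%) and 8 were higher in knockout, with a median of 0.033. Bmi1, a ring finger subunit of polycomb repressive complex 1, had the smallest p among them. It read 6.71, 6.56 and 6.96 in knockout and 6.36, 6.42 and 6.47 in wildtype, a change of 0.33 (SE 0.11, adjusted p = 0.249). The chromatin genes L3mbtl3 (-0.22), Scmh1 (-0.19) and Cbx2 (0.12) had groups that overlapped.

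**Figure D2:**
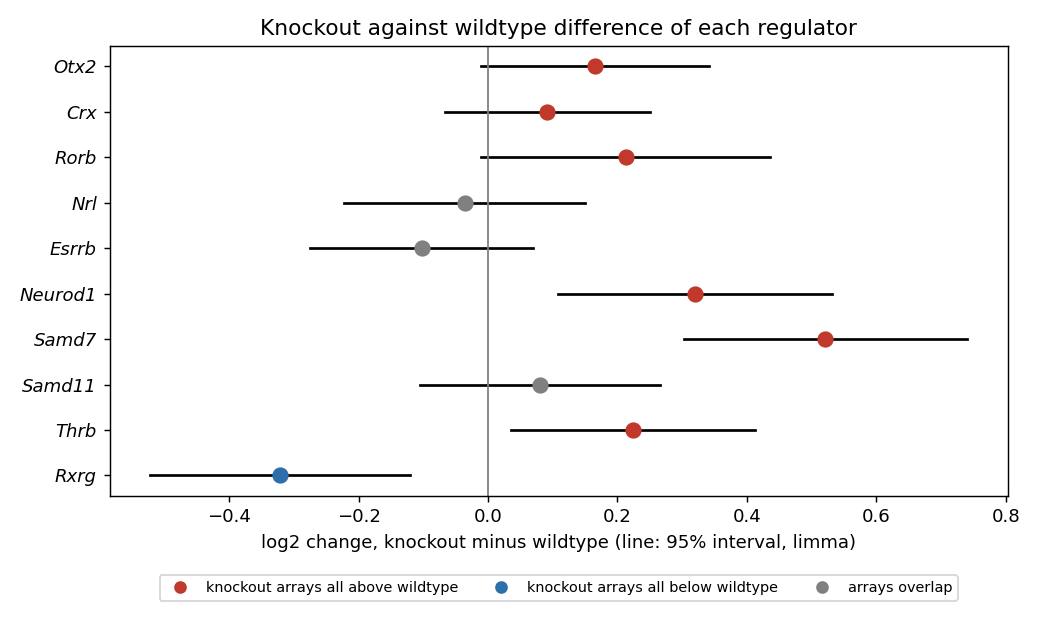
Log2 change of each regulator, knockout minus wildtype (point), with limma's 95% interval (line); colour gives whether the 3 knockout and 3 wildtype arrays overlap. Samd7 at 0.52 and Rxrg at -0.32 mark the extremes, and the intervals of Samd7, Neurod1, Thrb and Rxrg leave out 0 before adjustment.

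The cone receptors had differences of opposite sign. Thrb encodes the thyroid hormone receptor beta, whose retinal isoform drives the medium-wavelength opsin; the probe set was not examined by isoform. It read 8.91, 8.96 and 8.82 in knockout and 8.63, 8.61 and 8.78 in wildtype. The groups were apart by 0.043, with wildtype 3 nearest to the knockout arrays. The log2 change was 0.22 (95% interval 0.035 to 0.41), with an unadjusted p of 0.026 and an adjusted p of 0.296 in limma.

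Rxrg, the retinoid X receptor gamma, helps to restrain the short-wavelength opsin in cones. It read 5.66, 5.91 and 5.88 in knockout and 6.11, 6.17 and 6.13 in wildtype. Every knockout array lay below every wildtype array, by at least 0.20, and the wildtype arrays were close together (SD 0.030) while the knockout arrays spread more (SD 0.13). The log2 change was -0.32 (95% interval -0.52 to -0.12), a 1.25-fold difference, with an unadjusted p of 0.0060 and an adjusted p of 0.169 in limma. Of the 10 probe sets this one lay nearest to the log2 floor of 5, where background compresses differences. Without the 2 lens-rich arrays the change was -0.38.

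Around these receptors, 15 genes of thyroid hormone and retinoid handling were tested and 0 were called, with a median change of -0.0044. Dio2, the deiodinase that makes active thyroid hormone, read 8.48, 8.38 and 7.92 in knockout and 8.84, 8.74 and 8.90 in wildtype. Its groups did not overlap, and the change of -0.57 (SE 0.14) had an adjusted p of 0.136 in limma. Cyp26a1, a retinoic acid hydroxylase, was at -0.27, Cyp26b1 at -0.21 and Aldh1a3, which makes retinoic acid, at 0.19. None of these was called. Cyp26a1 read 4.77, 4.90 and 4.98 in knockout, under the log2 floor of 5, and 5.13, 5.12 and 5.21 in wildtype. It thus passed the floor only through its wildtype arrays.

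Genes that the regulators are known to control were set beside them. Of 32 rod genes tested, 0 were called and 21 were higher in knockout, with a median of 0.073. In 11 of the 32 (34.4%) all knockout arrays lay above all wildtype arrays, against 10.7% of all genes, and in 2 they lay below. Gngt1, the gamma subunit of rod transducin, read 9.73, 9.54 and 9.66 in knockout and 9.29, 9.30 and 9.30 in wildtype (change 0.35, limma adjusted p = 0.103). Aipl1, a chaperone of the rod phosphodiesterase, was at 0.22, and Impg1, a matrix proteoglycan around photoreceptors, at 0.23. Guca1b, a guanylate cyclase activator, was lower in knockout by a change of -0.74 (SE 0.16, adjusted p = 0.091), with 10.45, 9.77 and 9.97 in knockout and 10.74, 10.84 and 10.83 in wildtype. Without knockout 1, the highest of the knockout values, it fell past the threshold (-0.93, limma adjusted p = 0.018). The mean of the rod list was 11.17 to 11.25 on knockout arrays and 11.12 to 11.19 on wildtype arrays, which overlap. With that mean subtracted from each array, Samd7 was at 0.47, Neurod1 at 0.27 and Rxrg at -0.37, while Crx was at 0.038 and Samd11 at 0.027. Nrl was at -0.089 and Esrrb at -0.16 there, both farther from 0 than without the subtraction, and Otx2, Rorb and Thrb were at 0.11, 0.16 and 0.17. This comparison was chosen after seeing the data, and 0 of the 10 were called in it.

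The cone genes were divided. Of 14 tested, 1 was called (all genes 0.826%). This was Cngb3, a subunit of the cone cyclic nucleotide-gated channel. Its values were 9.06, 9.05 and 9.20 in wildtype and 9.81, 9.58 and 9.55 in knockout (change 0.54, SE 0.095, limma adjusted p = 0.049). That call was lost without any 1 of the 6 arrays (adjusted p from 0.067 to 0.231). Opn1sw, the short-wavelength opsin, read 11.43, 11.21 and 11.38 in knockout and 11.63, 11.63 and 11.72 in wildtype. It thus lay below wildtype on all knockout arrays by a mean of 0.32 (adjusted p = 0.159), as did Slc24a2, the cone sodium, calcium and potassium exchanger (-0.35), and Kcne2, a potassium channel subunit (-0.25). Opn1mw, the medium-wavelength opsin, read 10.89, 10.72 and 10.67 in knockout and 10.78, 10.97 and 11.07 in wildtype. Its groups overlapped, and its change of -0.18 (SE 0.10, limma adjusted p = 0.494) was opposite in sign to that of Thrb. In 4 of the 14 all knockout arrays lay below all wildtype arrays (all genes 9.58%), and in 3 they lay above (all genes 10.7%). These 3 were Cngb3, Pde6c (0.21) and Grk1 (0.18), and Grk1 was also counted among the rod genes that lay above. The cone median was -0.074, and 6 of 14 were higher in knockout.

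Other factors of photoreceptor development were tested as well. Of 15, 0 were called and 10 were higher in knockout, with a median of 0.022. Pias3, a SUMO ligase that works with Nrl and Crx, read 9.35, 9.40 and 9.35 in knockout and 9.22, 9.23 and 9.08 in wildtype (change 0.19, limma adjusted p = 0.332). Prdm1, a repressor that keeps photoreceptor precursors from becoming bipolar cells, was at 0.16 and the LIM homeodomain gene Lhx4 at 0.16. Onecut1, which is needed for horizontal cells and acts in early cone precursors, was at -0.38 (adjusted p = 0.055), with all knockout arrays below all wildtype arrays. Family relatives of the 10 members gave 0 called of 14, with a median of -0.061. Among them Rxra was at -0.21, Esrra at -0.16, Neurod2 at -0.15 and Rxrb at -0.14.

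**Figure D3:**
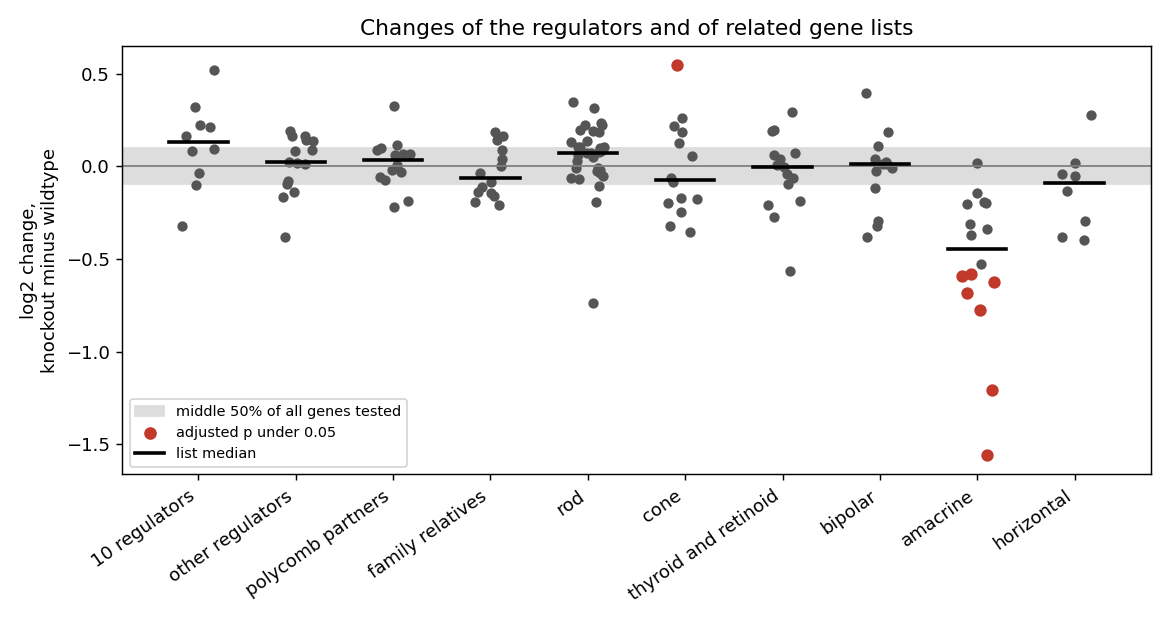
Log2 change, knockout minus wildtype, of every tested gene in the 10 regulators and 9 related lists (points; red, adjusted p under 0.05 in limma), with list medians (bars) and the middle 50% of all 15619 genes (grey band). The regulators have a median of 0.13 with no called gene, while the amacrine list has a median of -0.45 with 7 called.

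The other cell classes of the retina were read from their markers. Of 16 amacrine markers 7 fell, where 0.826% of all genes were called in either direction, and 15 were lower in knockout, with a median of -0.45. Slc5a7, the choline transporter of starburst cells, fell by 1.56 (limma adjusted p = 0.0038). Vip fell by 1.21, Slc17a8 by 0.78 and Chat by 0.62. The call of Vip was lost without knockout 1, wildtype 2 or wildtype 3 (limma adjusted p from 0.053 to 0.065). Chat lost its call without knockout 1 or 3 or wildtype 2 or 3 (0.055 to 0.093), and Slc17a8 without any array but knockout 2 (0.058 to 0.091). The horizontal list had 0 called of 8 with a median of -0.093, and its array means were 7.55 to 7.70 in knockout and 7.77 to 7.79 in wildtype. Bipolar markers, which share Otx2 and Crx with photoreceptors, had 0 called of 13 with a median of 0.011; Prkca was at -0.38, Tpbg at -0.30, Scgn at 0.39 and Nyx at 0.18. Ganglion cell (median -0.080), Muller glia (0.062), pigment epithelium (-0.19), lens (-0.24), microglia (0.0062) and endothelial (-0.052) lists had no called gene, and Nefh of the ganglion cell list (-0.40) and Abca8a of the Muller glia list (0.44) had limma adjusted p-values of 0.097 and 0.066. Whether the regulators' differences follow from the altered mix of cells was not tested.

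The array profiles most like the extremes were found by root mean square distance between log2 values, each centred on its gene's mean, over the 6 arrays. For Samd7 the nearest was Jam2, a junctional adhesion molecule, at 0.029, against a median distance of 0.30 over all genes. Jam2 read 11.09, 11.27 and 11.09 in knockout and 10.57, 10.64 and 10.80 in wildtype. Like Samd7 it was highest on knockout 2 and lowest on wildtype 1, the lens-rich arrays. This likeness follows from its choice as the nearest profile. Next came Zfp781 (distance 0.044, change 0.54) and Rasd1, a small GTPase (0.057, change 0.45). For Rxrg the nearest were Ncstn, a subunit of gamma-secretase (0.029, change -0.30), Tmem179 (0.036, change -0.31) and Ahnak2 (0.037, change -0.31), against a median of 0.21. None of these 6 genes was called (limma adjusted p from 0.058 to 0.259).

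**Figure D4:**
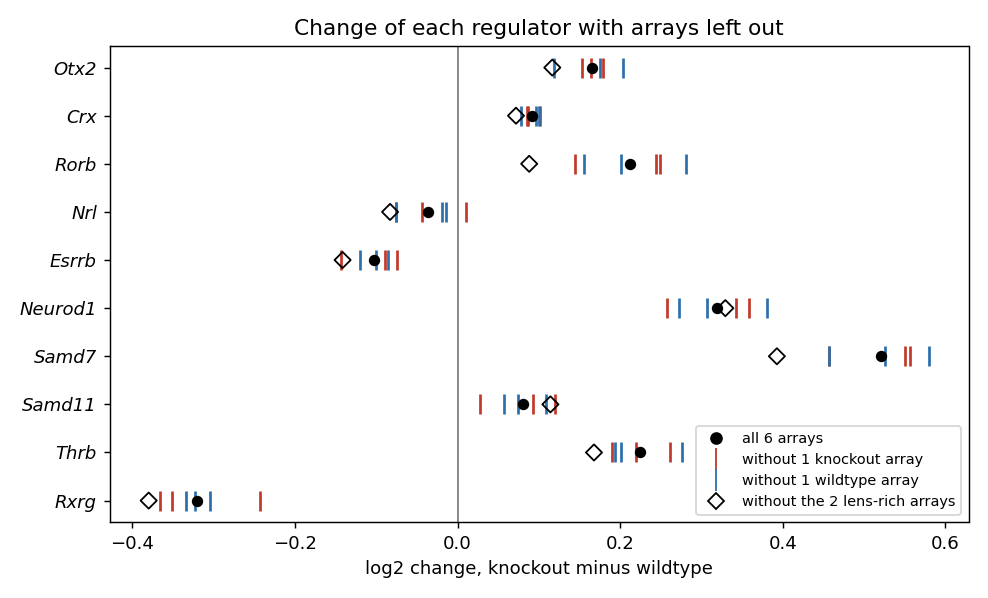
Log2 change of each regulator with all 6 arrays (filled point), with 1 array left out (ticks; red knockout, blue wildtype) and without the 2 lens-rich arrays (open diamond). Samd7 keeps a change of at least 0.39, Rorb moves from 0.21 to 0.088 without the lens-rich arrays, and Nrl is the only one to cross 0.

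The members differed in how far their changes held when arrays or settings were altered. Samd7, Neurod1 and Rxrg kept an unadjusted p under 0.05 in all 20 alternative settings that changed the values or the fit, and Thrb did in 13 of 20. Rorb did in 3, Otx2 in 2, Crx in 1, and Nrl, Samd11 and Esrrb in 0. All settings drew on the same 6 arrays and are not independent tests. Those that changed only the filter or the choice of probe sets left each member's change as it was and moved only its SE and p. With the log2 floor of 6, Rxrg was tested only through its wildtype arrays (6.11, 6.17 and 6.13). Its knockout values were 5.66, 5.91 and 5.88. Across these settings Samd7 ranged from 0.39 to 0.58, Neurod1 from 0.26 to 0.38, Thrb from 0.17 to 0.28 and Rxrg from -0.38 to -0.24. Nrl alone changed sign among the 10.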

How the data were processed

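The deposited values are log2 expression per probe set, made with RMA by the authors, per the submitters' processing notes; the version of RMA and the genome build behind it were not stated in the sources at hand. RMA equalises array distributions, so a change in total RNA per cell would not be seen. Each array had 100 ng of RNA per the labels' protocols. Array medians were 5.57 to 5.64 and arrays correlated at r of 0.975 to 0.993.

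Of 41345 probe sets, 23521 had 1 gene symbol, 1814 several and 16010 none in the annotation used here; 23328 of the first kind matched RefSeq (GRCm38.p6) by gene identifier. Genes with a log2 value of at least 5 on at least 3 arrays were tested, each by its brightest probe set, with limma 3.58.1 (R 4.3.3, 2-sided, genotype only) and Benjamini-Hochberg adjustment over 15619 genes at 0.05. Changes are knockout minus wildtype with limma's moderated SE; means carry the SD of 3 arrays. P-values of the main fit set each difference against the spread between these mice, moderated by limma towards that of all genes tested. Having 3 arrays a group limits the precision (median SE 0.095).

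Members, lists and alternatives were chosen with earlier results of these data known. Named genes are the members, Atrx, up to 4 genes of each list with the smallest p, of which the text gives those it uses, Gnat1 and Rpe65 as tissue checks, and 3 nearest profiles to the largest rise and fall. Opn1mw, Pde6c and Grk1 of the cone list were named in addition. List genes without a single-symbol probe set, red blood cell genes included, were not analysed here. The procedure was tested on simulated data. Figures used matplotlib 3.10.9.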

Additional observations from a re-analysis of the deposited data

How the results depend on the processing

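Of the 10 regulators 0 were called in limma's test with all settings but 3: Samd7 gave a count of 1 with a log2 floor of 6, with an intensity trend and robust spread, and at an adjusted p under 0.1. With 1 array left out the change of Nrl ran from -0.076 to 0.010, reversed without knockout 1 (adjusted p = 0.981), and it reversed to 0.0024 with the pigment epithelium mean as a covariate (0.995). Over the other gene lists 8 genes were called. That count was 5 with no filter on dim genes, with arrays centred on the median and with the lens mean as a covariate, 4 with the replicate block, with the pigment epithelium mean as a covariate and without the 2 lens-rich arrays, 2 over all probe sets, 13 with an intensity trend and 0 with plain least squares. With 1 array left out it ran from 1 to 8. Among single genes of these lists, Onecut1 and Abca8a also passed with a log2 floor of 6 (adjusted p = 0.026 and 0.033). Onecut1 met that floor on enough arrays only with its wildtype arrays, since its values on knockout 2 and 3 lay under it. Onecut1 also passed with a second quantile normalization (adjusted p = 0.0498). Gngt1, Opn1sw, Nefh, Abca8a and Atrx passed with an intensity trend (adjusted p = 0.032, 0.045, 0.031, 0.015 and 0.039). The replicate numbers share no stated litter or day, so the groups were not treated as paired. Same-numbered arrays deviated with correlations of -0.27, -0.38 and -0.058, but so few arrays cannot decide whether the numbers pair the groups. With the replicate block 68 genes were called over all genes, against 129 without it, and 0 of the regulators. Over all genes the count was 282 with an intensity trend, 74 with no filter, 209 with a log2 floor of 6, 71 with the pigment epithelium covariate, 36 without the lens-rich arrays, 1 with plain least squares and 74 over all probe sets. Without single arrays it ran from 25 to 141. Beyond the smaller number of genes or arrays in some settings, the cause was not tested.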
